A study of Mus musculus with 8 samples.

Results

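ISG15 is a small protein made of a pair of ubiquitin-like folds, and cells attach it to other proteins after interferon exposure in a reaction called ISGylation. The work is shared between an activating enzyme (UBA7), a conjugating enzyme (UBE2L6) and a ligase, which in mice is mainly HERC6 and can also be TRIM25. USP18 removes ISG15 from its targets and also restrains signalling from the type I interferon receptor. Genes of the pathway are classical interferon-stimulated genes, which carry an interferon-stimulated response element (ISRE) where interferon-activated transcription factors bind. Free ISG15 also acts outside cells as a cytokine-like molecule.

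The 6 genes *Isg15*, *Uba7*, *Ube2l6*, *Herc6*, *Usp18* and *Trim25* were followed among 47628 gene entries in cochlear RNA seq. They were chosen by their role in the pathway after the difference between genotypes in these same mice was known, so that difference is given here as a description and carries no test. All 6 were listed in the counts and all 6 passed the filter of a mean normalised count over 10, which left 19366 entries for testing.

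The 8 untreated mice were 21 days old, 4 of them WT (called WT_4, WT_5, WT_6 and WT_8 after their animal numbers) and 4 Opa1+/- (Het_2, Het_7, Het_484 and Het_491). Opa1+/- mice carry 1 knock-in allele with the recurrent human delTTAG mutation of *Opa1*, the gene of a mitochondrial inner membrane fusion protein, and WT mice were their littermates, of mixed background (C57BL/6 J and 129 Sv/Pas). The allele is present in every cell of the body, and the study used males and females without giving the sex of each mouse in the labels. Because whole isolated cochleae were extracted, fewer cells of a type and less RNA per cell cannot be told apart.

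Depth was similar across mice, with 15978051 to 20828030 counts on named genes per mouse, and counting error is therefore smallest for the more abundant members. *Opa1* checked the labels: it lay between 112 and 126 CPM (counts per 1000000 counts) in WT mice and between 60.4 and 70.02 CPM in the heterozygotes. The log2 fold change of the gene came to -0.87 ± 0.0677 (SE, n = 4 per genotype; edgeR adjusted p = 0.00515), which lost the adjusted threshold without Het_2 at the same size (-0.85, adjusted p = 0.0704). Markers of the labelled tissue were present in every library. The summed level of 8 hair cell genes was 99.5 to 153 CPM, that of 8 spiral ganglion neuron genes 4013 to 4776 CPM and that of 6 genes of the stria vascularis 870 to 1699 CPM.

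The sequence in front of *Isg15* is shown first, because the ISRE is the element through which interferon acts on this gene and because sequence was not used to choose the members. RefSeq promoters, from 250 bases before to 50 after the transcript start, were found for 5 members (GRCm38.p6), all but *Usp18*. The ISRE core was searched on both strands as GAAANNGAAA, where N is any base. Only *Isg15* among these 5 members held it, with 3 matches that overlap one another and together cover 22 bases, positions -78 to -57 counted from the start. These 22 bases are in capitals in the 250 bases before the start, chr4:156200819-156201068 on the minus strand, where GENCODE annotates no gene.
*Isg15*, bases -250 to -1: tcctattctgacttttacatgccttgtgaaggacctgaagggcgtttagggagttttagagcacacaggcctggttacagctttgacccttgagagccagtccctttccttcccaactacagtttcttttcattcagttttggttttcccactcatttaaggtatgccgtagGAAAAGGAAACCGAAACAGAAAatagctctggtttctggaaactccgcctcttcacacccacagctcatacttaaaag

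The core occurred in 1131 of 32851 RefSeq promoters of the same length, 3.44%, and 5 promoters (0.0152%) held 3 or more matches. With 1 mismatch allowed, 4 of the 5 members held a match (*Isg15*, *Uba7*, *Herc6* and *Trim25*), but so did 35.4% of all promoters. A short stretch around matches lets 3 of the genes be compared. For *Uba7* it holds the 2 matches that begin before the start, and not another on the gene's own strand just after it, and for *Trim25* it holds both matches. Those shown for *Uba7* and *Trim25* have 1 mismatch each and read on the opposite strand, so the runs of TTTC in capitals are the reverse complement of GAAA. Both stretches overlap an annotated 5′ exon of their gene, since GENCODE starts these genes slightly before RefSeq.
*Isg15*, chr4:156200871-156200900, minus strand: gtagGAAAAGGAAACCGAAACAGAAAatag
*Uba7*, chr9:107975533-107975562, plus strand: agtctagTTTCACTTTTGGTTTCctgaaat
*Trim25*, chr11:88999386-88999415, plus strand: ccctcctGTTCAGTTTCGATTCCttcctcg

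The gamma-activated sequence, TTCNNNGAA, a second interferon-response element, was in none of the 5 member promoters and in 8.3% of all promoters. A match is a run of letters in this window and not a measured binding site.

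*Isg15*, the modifier itself, lies on chromosome 4 from 156199424 to 156200818 (GRCm38) and has 1 annotated transcript with 756 bases of exons. In WT_4, WT_5, WT_6 and WT_8 it stood at 7.31, 5.81, 5.08 and 4.36 CPM, and in Het_2, Het_7, Het_484 and Het_491 at 11.8, 9.02, 11.9 and 11.9 CPM. Every Opa1+/- mouse was above every WT mouse, and Het_7 was the lowest of its genotype. The means were 5.64 ± 1.26 CPM and 11.2 ± 1.42 CPM (SD, n = 4 each), a ratio of 1.98 and a log2 fold change of 0.98 ± 0.170 (SE). These values rest on 85 to 199 reads per mouse. The spread between WT mice was 2.28 times that of counting alone, and that between Opa1+/- mice 1.75 times. A processed pseudogene, *AC151275.1*, shares 482 bases with *Isg15* at 95.2% identity and has no entry of that symbol in the count tables, so the share of reads that it contributes is uncertain.

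**Figure D1:**
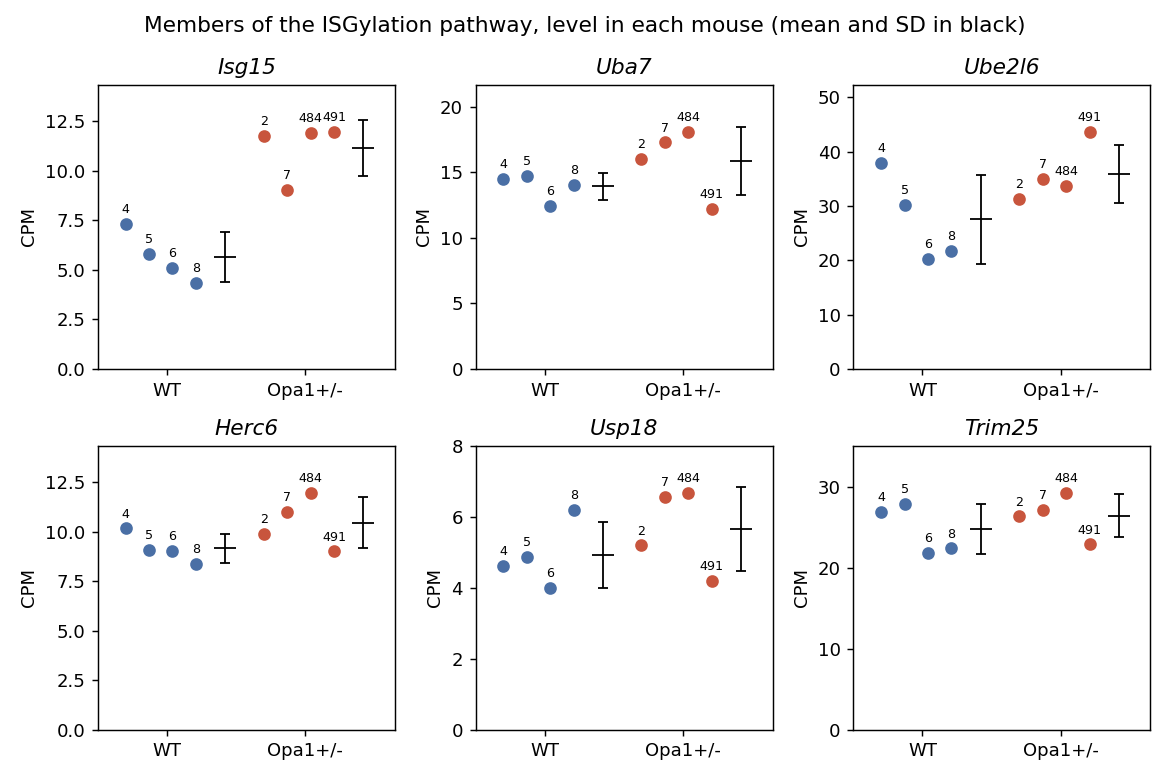
Level of each of the 6 genes in CPM (vertical axis, from 0) in each mouse, with animal numbers above the points and the mean ± SD of 4 mice in black, WT in blue and Opa1+/- in red. For *Isg15* the Opa1+/- mice sit at 9.02 CPM or more and the WT mice at 7.31 CPM or less, and for the other 5 genes the genotypes overlap.

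*Uba7*, the activating enzyme that starts the ISG15 cascade, overlapped between genotypes (chromosome 9 from 107975505 to 107984060). It was 14.5, 14.7, 12.4 and 14.1 CPM in WT_4, WT_5, WT_6 and WT_8, and 16.0, 17.3, 18.1 and 12.2 CPM in Het_2, Het_7, Het_484 and Het_491. Het_2, Het_7 and Het_484 were above all WT mice and Het_491 was below all of them. The log2 fold change was 0.19 ± 0.125. Gene *Gm20661* on the same strand shares 233 exon bases with *Uba7* and held between 26 and 138 reads per mouse, 9.86% to 48.1% of the *Uba7* count, so reads in the shared exons could have been split or dropped.

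*Ube2l6*, the conjugating enzyme, was the member whose spread between mice most exceeded counting error, in both genotypes (chromosome 2 from 84798828 to 84810335). WT_4, WT_5, WT_6 and WT_8 had 38.0, 30.2, 20.2 and 21.8 CPM, and Het_2, Het_7, Het_484 and Het_491 had 31.3, 34.9, 33.7 and 43.6 CPM. WT_4 was above all Opa1+/- mice but Het_491, so the genotypes overlapped, although WT_5, WT_6 and WT_8 were below every Opa1+/- mouse. The log2 fold change was 0.38 ± 0.193, and the spread between WT mice was 6.76 times counting error (3.67 times between Opa1+/- mice). The annotated transcripts of 5 other genes share at least 300 bases with *Ube2l6* at 90% identity or more. Of these, *D10Wsu102e* held 250 to 421 reads per mouse and *Gm17167* held 31 to 88, against 338 to 697 for *Ube2l6*. *Gm19265* and *Gm15721* held at most 16, and *Gm47054* has no entry of that symbol in the count tables. How reads were divided among these genes is uncertain.

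The ligases had small log2 fold changes. *Herc6*, the main ISG15 ligase of mice (chromosome 6 from 57581000 to 57664632), was 8.37 to 10.2 CPM in WT mice and 8.999 to 11.9 CPM in Opa1+/- mice, with a log2 fold change of 0.19 ± 0.114. Het_484 was its highest and Het_491 its lowest Opa1+/- value, as for *Uba7*. *Trim25*, a RING ligase that also ubiquitinates the RNA sensor RIG-I (chromosome 11 from 88999376 to 89020293), was 21.9 to 27.9 CPM in WT mice and 22.9 to 29.3 CPM in Opa1+/- mice, with a log2 fold change of 0.093 ± 0.105. The transcript *Gm45193* overlaps *Herc6* on the same strand over 1269 exon bases and has no entry of that symbol in the count tables.

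*Usp18*, the protease that removes ISG15 (chromosome 6 from 121245906 to 121270917), was the least abundant member in CPM. WT_4, WT_5, WT_6 and WT_8 had 4.62, 4.88, 4.00 and 6.22 CPM, and Het_2, Het_7, Het_484 and Het_491 had 5.20, 6.57, 6.68 and 4.21 CPM. WT_8 exceeded Het_2 and Het_491, and the log2 fold change of 0.20 ± 0.190 was no larger than about its standard error. The long noncoding RNA *Gm44148* overlaps *Usp18* on the other strand, with at most 9 reads in any mouse.

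All 6 members had a positive log2 fold change, with a median of 0.20 against 0.00040 over all genes tested, and 0.19 without *Isg15*. Groups that did not overlap, with Opa1+/- higher, were found for 1 of 6 members, *Isg15*, and for 1.98% of all genes tested. By edgeR's quasi-likelihood test 0 of 6 members passed an adjusted p of 0.05, as did 0.0258% of all genes, while 1 of 6, *Isg15*, had an unadjusted p under 0.05 with a higher level, as did 3.51% of all genes. DESeq2's Wald test passed 1 of 6, again *Isg15*, and 0.119% of all genes. Limma voom and edgeR with robust estimation passed 0 of 6, and each passed 10 of all 19366 genes. Since the members were selected on this contrast, nothing is read from these counts.

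The same counts can be written as ratios within each library, which need no scaling between mice. They reuse the *Isg15* values by which the genes were chosen and are no further evidence. There were 19.4 to 27.1 *Isg15* counts per 100 *Trim25* counts in WT mice and 33.1 to 52.1 in Opa1+/- mice. Per 100 *Uba7* counts, the ranges were 31.0 to 50.4 and 52.2 to 97.9. The genotypes did not overlap for either ratio. Against *Ube2l6* they came close, with 19.2 to 25.1 in WT mice and 25.8 to 37.5 in Opa1+/- mice. Against *Usp18* they overlapped, with 70.1 to 158 and 137 to 283.

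Levels of different genes were compared as CPM per kilobase of annotated exons. In WT mice the order was *Ube2l6* (13.8 ± 4.12 CPM per kilobase, SD, n = 4), *Isg15* (7.46 ± 1.67), *Trim25* (4.31 ± 0.537), *Uba7* (2.08 ± 0.156), *Usp18* (1.77 ± 0.335) and *Herc6* (0.986 ± 0.0797). Between neighbours in this order, on this length, only *Uba7* and *Usp18* overlapped between mice. In Opa1+/- mice the order was the same, but *Isg15* at 14.8 ± 1.88 CPM per kilobase overlapped *Ube2l6* at 18.0 ± 2.68. With the longest transcript as the length the order was the same, but the levels of *Uba7*, *Usp18* and *Herc6* were higher (3.85, 2.78 and 1.92 CPM per kilobase in WT mice). *Uba7* (3.43 to 4.07) then overlapped *Trim25* (3.91 to 4.996) as well as *Usp18*, and in Opa1+/- mice *Isg15* (11.9 to 15.8) no longer overlapped *Ube2l6* (20.1 to 27.9), while *Usp18* (2.38 to 3.77) overlapped *Herc6* (1.89 to 2.51).

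**Figure D2:**
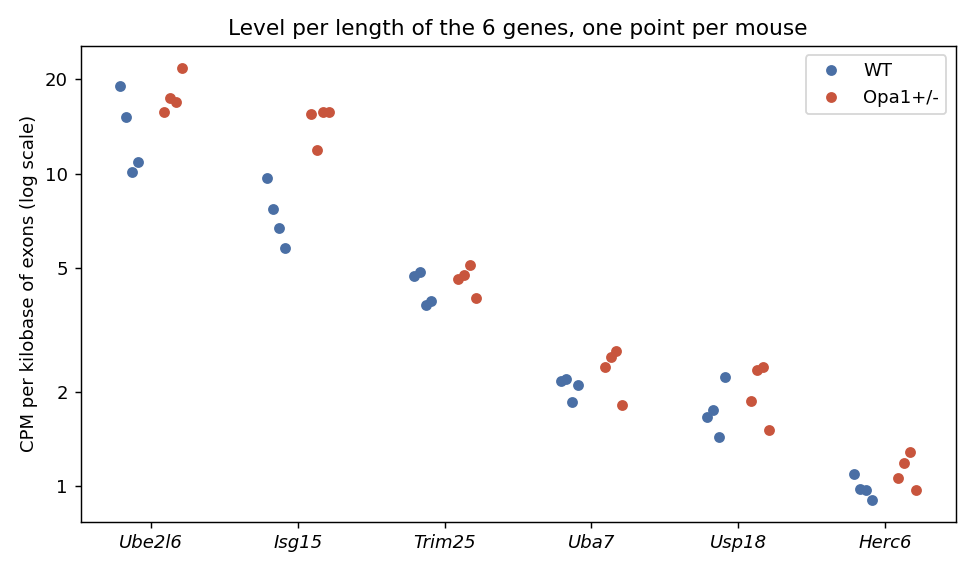
Level of each gene in CPM per kilobase of exons (vertical axis, log scale) in each mouse, WT in blue and Opa1+/- in red, ordered by the WT mean. *Isg15* ranges from 5.76 to 9.66 in WT mice and reaches 11.9 to 15.8 in Opa1+/- mice, next to *Ube2l6*.

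The closest relatives of the enzymes in the ubiquitin system were compared per length. *Uba1*, which activates ubiquitin, stood at 58.6 ± 1.13 CPM per kilobase in WT mice against 2.08 for *Uba7*. *Ube2l3*, a ubiquitin conjugating enzyme, was at 18.2 ± 0.376 against 13.8 for *Ube2l6*, but at 17.4 ± 0.819 against 18.0 in Opa1+/- mice, with overlap in both genotypes. This comparison depends on the length, since with the longest transcripts *Ube2l3* was at 35.3 ± 0.729 in WT and 33.6 ± 1.59 in Opa1+/- mice against 17.7 ± 5.27 and 23.0 ± 3.42 for *Ube2l6*, with no overlap. *Herc3*, a related HECT ligase, was at 4.201 ± 0.245 in WT mice against 0.986 for *Herc6*. In log2 fold change between genotypes, *Uba1* was at 0.019 ± 0.0586, *Ube2l3* at -0.068 ± 0.0553 and *Herc3* at -0.12 ± 0.0807.

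Enzymes of other modifiers that had an unadjusted p under 0.05 were all lower in Opa1+/- mice. Of 12 conjugating enzymes tested, *Ube2d3* (-0.17 ± 0.0584) and *Ube2n* (-0.14 ± 0.0590) did so, and of 12 deconjugating enzymes *Usp25* (-0.13 ± 0.0538) and *Usp9x* (-0.17 ± 0.0714). The edgeR adjusted p was 0.722 for *Ube2d3*, 0.732 for *Ube2n* and 0.728 for both proteases. Over all genes, 3.22% were lower at an unadjusted p under 0.05. None of the 8 activating enzymes, the 4 HERC ligases or the 7 genes listed as partners of the pathway did so in either direction. The last list holds *Arih1* and the receptor chain *Ifnar2*, among others, and not all of its genes are partners of ISG15 itself. None of these lists held a gene past the adjusted threshold by edgeR or DESeq2.

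**Figure D3:**
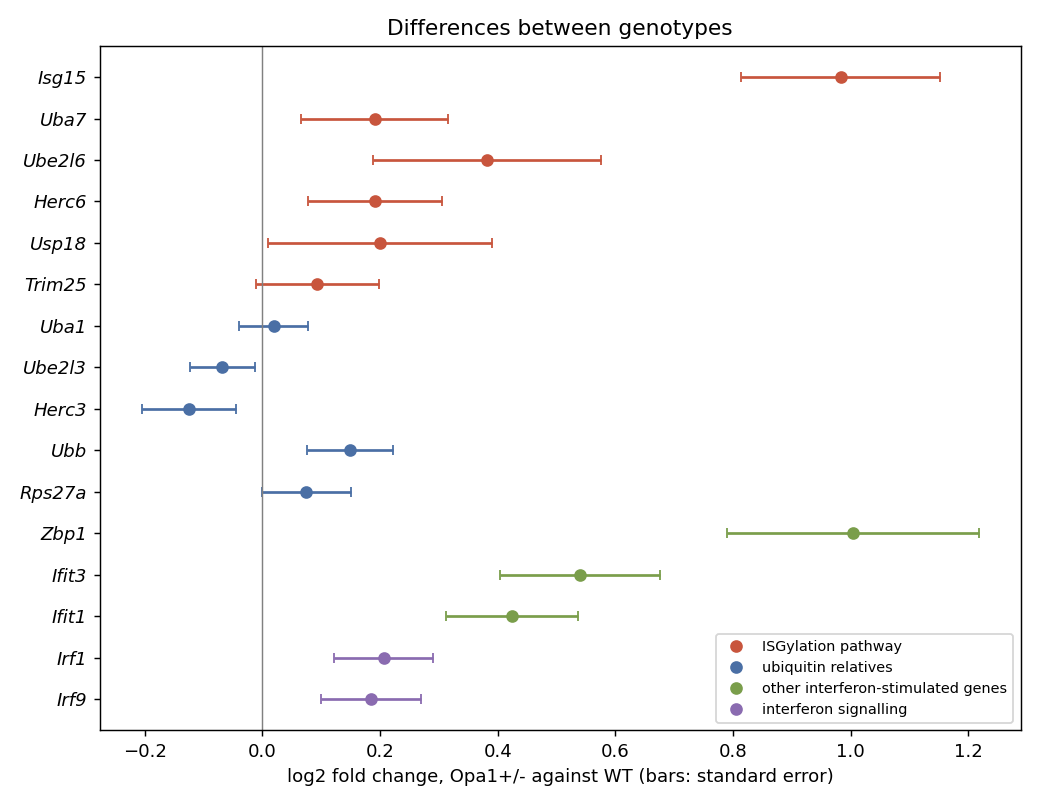
Log2 fold change of Opa1+/- against WT (horizontal axis) with its standard error for the 6 members (red), their relatives in the ubiquitin system (blue), the 3 genes of lowest p among other interferon-stimulated genes (green) and 2 interferon signalling genes (purple). *Isg15* at 0.98 and *Zbp1* at 1.004 lie apart from the other members and from the relatives.

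The interferon side of the pathway was examined in the same fit, with lists that were also drawn up with earlier results known. Of the 21 interferon ligand genes, 17 had no count in any mouse, and the other 4 (*Ifna2*, *Ifna4*, *Ifnl2* and *Ifnl3*) had 1 count each, all in WT mice. A summed count of 0, as in all 4 Opa1+/- mice, allows up to 3 counts, or 0.150 to 0.191 CPM per library, for counting error only. Interferon transcripts were thus not detectable at this depth in Opa1+/- mice.

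Of the receptor and signalling genes, 19 were tested and the median log2 fold change was 0.084. *Irf1*, which encodes a transcription factor of the interferon response, was at 0.21 ± 0.0841 (SE, edgeR adjusted p = 0.728). *Irf9*, the DNA-binding subunit of the complex that binds the ISRE, was at 0.18 ± 0.0857 (edgeR adjusted p = 0.749).

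Other interferon-stimulated genes had mostly positive log2 fold changes. Of 33 genes tested, 30 had a positive log2 fold change, against 50.1% of all genes, and the median was 0.31. An unadjusted p under 0.05 was reached by 13, all higher, against the 3.51% of all genes, and 4 did not overlap between genotypes, against 1.98%. None passed the adjusted threshold by edgeR, DESeq2 or limma voom. *Zbp1*, a sensor of nucleic acids, was at 1.40 ± 0.102 CPM in WT mice and at 2.80 ± 0.743 CPM in heterozygotes, a log2 fold change of 1.004 ± 0.214 (edgeR adjusted p = 0.722). *Ifit3* was at 0.54 ± 0.136 and *Ifit1* at 0.42 ± 0.112 on the log2 scale, both encoding antiviral proteins and both with an edgeR adjusted p of 0.722. Among 10 interferon-responsive TRIM genes, relatives of *Trim25*, only *Trim30a* had an unadjusted p under 0.05 (log2 fold change 0.41 ± 0.150, edgeR adjusted p = 0.722).

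How the members varied between mice of the same genotype did not enter their choice. Each member's log2 CPM was taken as a deviation from its genotype mean over the 8 mice, and all 15 pairs were correlated, with exact permutation within genotypes and Benjamini-Hochberg adjustment over the 15, a comparison drawn up after the data had been seen. *Isg15* went with *Ube2l6* (r = 0.73, Spearman's rho = 0.69, exact permutation p = 0.106 and 0.102, adjusted 0.318 and 0.384), and r was 0.85 without the 2 mice farthest from the median of *Isg15* but 0.43 without WT_4 alone. With *Uba7* r was -0.042 (exact permutation p = 0.872) and with *Usp18* -0.46 (exact permutation p = 0.273), and both turned positive, to 0.29 and 0.22, without the same 2 mice, WT_8 and Het_7.

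*Uba7* instead went with *Trim25*, *Usp18* and *Herc6*. For *Uba7* and *Trim25* r was 0.82 and rho 0.88 (exact permutation p = 0.00174, the smallest that the permutations allow, and 0.00521, adjusted 0.026 and 0.0781), and r was 0.61 without WT_6 and Het_491. For *Uba7* and *Usp18* r was 0.81 (exact p = 0.0156, adjusted 0.117) but 0.35 without the same 2 mice, so that relation rests on them. For *Uba7* and *Herc6* r was 0.76 (exact p = 0.0642, adjusted 0.241) and 0.79 without them. Of the 15 pairs, only *Uba7* with *Trim25* passed 0.05 after adjustment, by Pearson's r and not by rho.

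**Figure D4:**
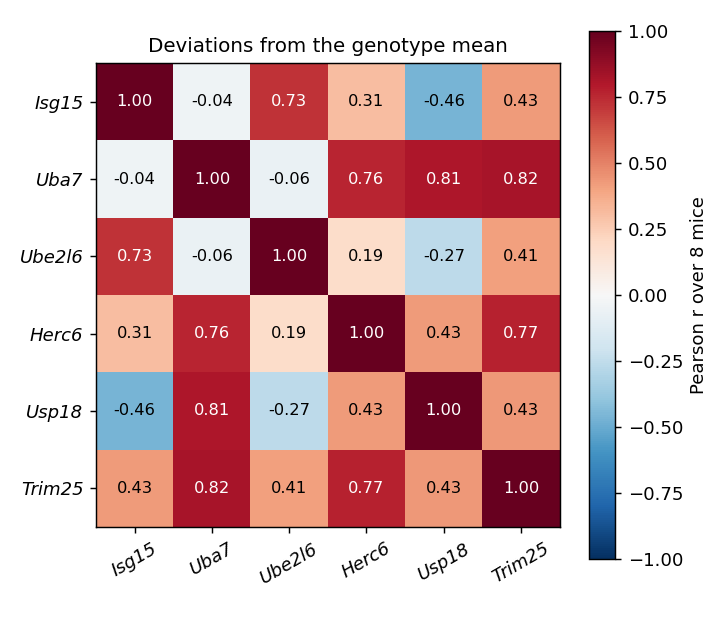
Pearson's r between the 6 genes over 8 mice, computed on deviations of log2 CPM from the genotype mean (color scale from -1 to 1, value in each cell). *Isg15* pairs best with *Ube2l6* at 0.73, and *Uba7* pairs with *Trim25* at 0.82, *Usp18* at 0.81 and *Herc6* at 0.76.

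Of 13934 tested genes with a mean of at least 5 CPM, the 5 most like *Isg15* by this measure were *Fcf1* (r = 0.97), *Pdzk1ip1* (0.97), *Rhno1* (0.97), *Metap2* (0.97) and *Ube2c* (0.97), and 68 genes reached 0.9. No other member was among them, and 4.66% of these genes had an r as high as that of *Ube2l6*. These values rest on 8 mice with 2 group means removed and are a description.

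Blood transcripts differed between the libraries, and their level is given beside the members. The 7 erythroid genes found in the files, with haemoglobins among them and none at 0 in all mice, summed to 21425, 12300, 8725 and 7739 CPM in WT_4, WT_5, WT_6 and WT_8, and to 15421, 15040, 18431 and 25032 CPM in Het_2, Het_7, Het_484 and Het_491. The means were 12547 ± 6235 and 18481 ± 4623 CPM (SD, n = 4; exact two-sided permutation p = 0.171), so the genotypes overlapped, with all 7 genes on the higher side in Opa1+/- mice.

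Between mice of 1 genotype, this sum went with *Ube2l6* (r = 0.94, rho = 0.90) and with *Isg15* (r = 0.87, rho = 0.90). The exact permutation p-values were 0.0139 and 0.033 for *Ube2l6* and 0.0122 and 0.00174 for *Isg15*. After adjustment over the 60 relations between 6 members and 10 marker lists they were 0.278 and 0.313 for *Ube2l6* and 0.278 and 0.104 for *Isg15*, so neither relation passed. Of the 60 relations, 8 had an exact p under 0.05 for r and 0 passed after adjustment. The smallest p for r was that of *Ube2l6* with the sum of the stria vascularis genes (r = -0.86, rho = -0.86, exact permutation p = 0.0104 and 0.0226, adjusted 0.278 and 0.313). The hair cell sum was inverse to *Herc6* (r = -0.69, rho = -0.79, exact permutation p = 0.0208 and 0.0104, adjusted 0.295 and 0.243). It was likewise inverse to *Trim25* (r = -0.78, rho = -0.83, exact permutation p = 0.0382 and 0.0365, adjusted 0.327 and 0.313) and to *Uba7* (r = -0.53, rho = -0.76, exact permutation p = 0.0486 and 0.0122, adjusted 0.365 and 0.243). For the erythroid sum, r without the 2 mice farthest from its median, WT_4 and Het_491, was 0.81 with *Ube2l6* and 0.79 with *Isg15*. For the stria vascularis sum, r with *Ube2l6* was -0.60 without WT_4 and WT_6. For the hair cell sum without the same mice, r was -0.91 with *Herc6*, -0.90 with *Trim25* and -0.66 with *Uba7*.

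**Figure D5:**
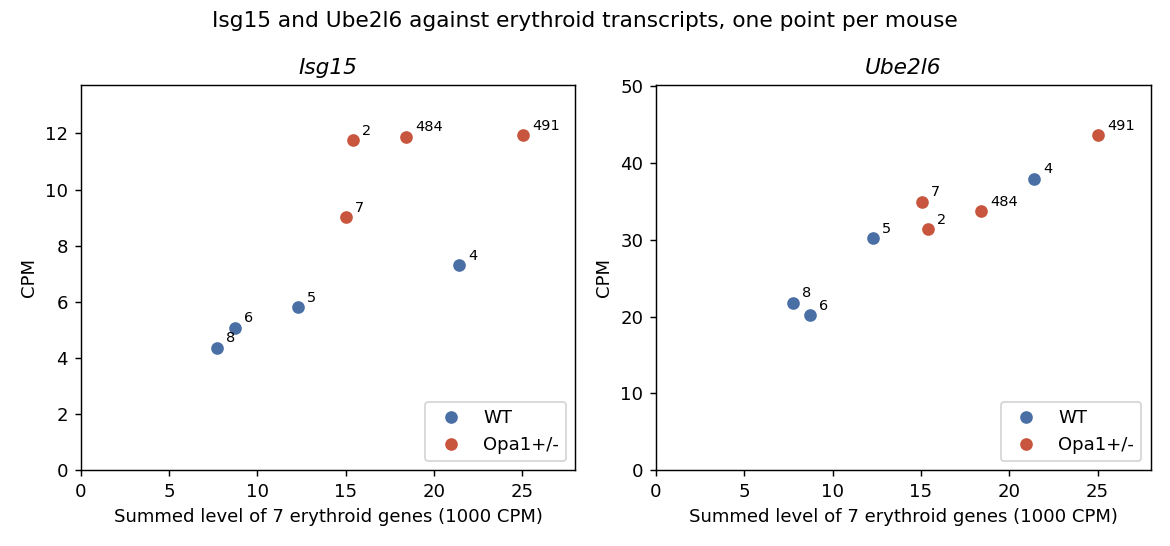
*Isg15* (left) and *Ube2l6* (right) in CPM (vertical axis, from 0) against the summed level of 7 erythroid genes (horizontal axis, in units of 1000 CPM), with 1 point per mouse and animal numbers beside the points. Among the WT mice *Isg15* is 7.31, 5.81, 5.08 and 4.36 CPM at erythroid sums of 21425, 12300, 8725 and 7739 CPM, and among the Opa1+/- mice it is 9.02, 11.8, 11.9 and 11.9 CPM at 15040, 15421, 18431 and 25032 CPM. What blood contributes to these levels was not tested.

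With the erythroid sum as a covariate, an alternative added after the data were seen, the log2 fold change of *Ube2l6* went from 0.38 to 0.031 ± 0.0964 and that of *Isg15* from 0.98 to 0.72 ± 0.141. *Usp18* was then at 0.35 ± 0.225, *Uba7* at 0.22 ± 0.155, *Herc6* at 0.14 ± 0.140 and *Trim25* at 0.026 ± 0.125. The gene lists, with the other interferon-stimulated genes among them, were not counted again with this covariate. Leaving out the mouse with the most erythroid transcript of each genotype, WT_4 and Het_491, gave 1.09 ± 0.168 for *Isg15* and 0.46 ± 0.150 for *Ube2l6*. In the 6 mice that remained, the genotypes did not overlap, with Opa1+/- higher, for 4 members, *Isg15*, *Uba7*, *Ube2l6* and *Herc6*, and for 7.57% of all genes tested in those mice. WT_4 had the highest WT value of *Ube2l6* and *Herc6*, and Het_491 the lowest Opa1+/- value of *Uba7* and *Herc6*.

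Other cell types were followed by their marker lists, and no marker was at 0 in all mice. The 12 neutrophil and marrow genes summed to 441 to 1452 CPM in WT mice and to 463 to 1198 CPM in Opa1+/- mice, highest in the same 2 mice as the erythroid sum. The 10 macrophage genes summed to 149 to 251 and 182 to 223 CPM. The 4 genes listed for plasmacytoid dendritic cells, known as interferon producers, were *Siglech*, *Ccr9*, *Klk1* and *Cox6a2*. They summed to 8.35 to 34.5 and 7.02 to 18.7 CPM, and whether other cells gave these transcripts was not tested. The 6 endothelial genes summed to 221 to 241 and 223 to 268 CPM. Between mice of 1 genotype, the neutrophil and marrow sum had an r of 0.73 with *Isg15* and 0.72 with *Ube2l6* (exact permutation p = 0.108 and 0.0625, adjusted 0.431 and 0.417), and of 0.34 and -0.11 without WT_4 and Het_491, so these relations rest on those 2 mice. The macrophage sum was inverse to *Uba7* (r = -0.63, rho = -0.45, exact permutation p = 0.0278 and 0.243, adjusted 0.295 and 0.714). What these cells contribute to the difference between genotypes was not tested.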

How the data were processed

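Cochlear RNA was prepared by the authors with the CORALL kit and sequenced as paired reads, which were mapped to GRCm38 with STAR after quality control with FastQC, per the study's methods. Molecular identifiers were used against amplification bias. The counting program and its use of strand are not given in the sources used here, and the labels name 2 RNA extraction methods without saying which mouse had which. The authors deposited 1 table of raw counts per gene symbol for each of the 8 mice, without normalization. Entries that name no gene (0.112% to 0.124% of counts) were left out.

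Library sizes were scaled by TMM, genes with a mean count over 10 after DESeq2 size factors were kept, and genotypes were compared by edgeR's quasi-likelihood test (edgeR 4.0.16) with Benjamini-Hochberg adjustment. Standard errors were derived from the fold change and its F statistic. Alternatives were DESeq2 1.42.0, limma 3.58.1 (voom), other scalings and filters, and mice left out. The fit was tested on simulated counts. Log2 CPM used a prior count of 2. Per-length levels used GENCODE vM21 exons, and similar transcripts were found with blastn 2.17.0. Promoter sequences are from RefSeq (GRCm38.p6).

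The members, gene lists and marker lists were chosen with earlier results of these data known. Genes named are the 6 members, *Opa1*, their closest ubiquitin relatives, at most 3 genes of lowest p per list, the 5 most like *Isg15* and the interferon ligands. Genes that overlap a member or are near-identical to it are named as limits of its counts. Some genes that this rule names are not reported here.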

Additional observations from a re-analysis of the deposited data

Results flagged for a closer look

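In groups of 4 mice, a value was singled out where its gap to the nearest mouse exceeded Dixon's 95% critical value of the range, over 42 groups of members, *Opa1*, marker sums and ratios. Chance singles out about 1 in 20 such groups. *Isg15* in Het_7, at 9.02 CPM, was below the other 3 Opa1+/- mice (11.8 to 11.9 CPM) by 0.942 of the range, and still above every WT mouse. *Isg15* counts per 100 *Ube2l6* counts in WT_6, at 25.1, were above the other WT mice, the lowest of which had 19.2. The neutrophil and marrow sum of WT_4 was 1452 CPM, while WT_5, WT_6 and WT_8 had 441 to 539 CPM. In Het_491 the B cell sum was 123 CPM against 52.0 to 62.8 CPM, and the T cell sum 3.70 CPM against 2.10 to 2.36 CPM, in the other Opa1+/- mice.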

How the results depend on the processing

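No paired analysis was run, since the animal numbers do not tell which WT and Opa1+/- mice shared a litter. The log2 fold changes of the 6 members stayed positive under all 19 alternatives, with *Isg15* between 0.87 and 1.13 when single mice were left out, and at 0.72 with the erythroid sum as a covariate. Single mice moved the other members by over 1.5 times: *Ube2l6* ranged from 0.26 (without WT_6) to 0.58 (WT_4), *Usp18* from 0.11 (WT_6) to 0.33 (WT_8), *Trim25* from 0.039 (WT_6) to 0.16 (WT_5), *Uba7* from 0.13 (Het_484) to 0.29 (Het_491) and *Herc6* from 0.13 (Het_484) to 0.25 (Het_491). Leaving out single mice gave a median of the members between 0.13 and 0.28, with 1 or 2 members whose genotypes did not overlap (2.4% to 6.26% of all genes). Both Opa1+/- mice with 3-digit numbers left out gave 2 (5.75% of all genes), and the 2 mice highest in erythroid transcript left out gave 4 (7.57%). The number of genes called was 5, and 23 with DESeq2, 10 with limma voom, 10 with robust estimation and 12 without the filter. It was 0 to 9 with single mice left out and 0 without Het_2. It was also 0 in 3 fits: with both 3-digit mice left out, with the erythroid covariate and without the 2 mice highest in erythroid transcript. In these 3 fits the log2 fold change of *Opa1* stayed at -0.86 (adjusted p = 0.260), -0.89 (adjusted p = 0.0539) and -0.91 (adjusted p = 0.0715), and with single mice left out it ranged from -0.90 to -0.83. List genes with an unadjusted p under 0.05 numbered 22, and 10 to 29 with single mice left out, while 0 passed the adjusted threshold in each. Promoters with an ISRE core rose from 1 member to 4 with 1 mismatch allowed. The correlation between *Isg15* and *Trim25* within genotypes was 0.43, but 0.14 by rank. Depth limits *Usp18* and *Isg15* most, with 66 to 199 reads per mouse. The causes of these changes were not tested.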
